A study of Mus musculus with 29 samples.

Results

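The genes for the D cyclins, their kinases Cdk4 and Cdk6 and the inhibitors of these kinases were examined in RNA-seq libraries of mouse pro-B cells. They are 10 genes, *Ccnd1*, *Ccnd2*, *Ccnd3*, *Cdk4*, *Cdk6*, *Cdkn1a*, *Cdkn1b*, *Cdkn2a*, *Cdkn2c* and *Cdkn2d*, chosen by symbol from the 24732 entries of the tables, where they have 11 entries because *Cdkn2d* has 2 of them. The libraries were made from poly(A) RNA of cells sorted from C57BL/6 mice, 3 of wild-type (*Pax5*+/+) and 2 of *Pax5*-/- pro-B cells aligned to mm9, and 3 more, aligned to mm10, of pro-B cells with the genotype *Pax5*+/+ Meox2-cre. The Meox2-cre mice were 3 weeks old, carried a Cre gene that the study describes as ubiquitously expressed from the *Meox2* locus, and gave cells that were pooled. A supplementary list names these Meox2-cre mice *Pax5*+/- where the labels name them *Pax5*+/+, and the age of the other mice is not given in the sources used here. Per the study's cell definitions, wild-type pro-B cells and Pax5-deficient progenitors were both B220+Kit+ but were sorted through different gates, Ly6D being required for the progenitors alone, so that the choice of gate and the genotype cannot be told apart in any comparison below. To define the target genes regulated by Pax5, the study combined the *Pax5*-/- and *Pax5*+/+ libraries with Pax5 binding from ChIP-seq. Pax5 is the transcription factor that commits lymphoid progenitors to the B cell lineage.

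A D cyclin binds Cdk4 or Cdk6, and the complex phosphorylates the retinoblastoma protein, which releases E2F factors and lets a cell pass from the G1 to the S phase. The INK4 proteins, encoded by *Cdkn2a*, *Cdkn2c* and *Cdkn2d* among others, bind the kinases and keep the cyclins away. The Cip/Kip proteins p21 (*Cdkn1a*) and p27 (*Cdkn1b*) bind cyclin-kinase complexes and inhibit above all those of Cdk2. Cyclin D3 is the D cyclin that pro-B and pre-B cells depend on for their expansion in the bone marrow, and loss of the *Cdkn2a* locus is common in B cell acute lymphoblastic leukemia.

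The deposited values are TPM, which are scaled by gene length and to the same sum in each library, so that levels of different genes can be compared but the depth in reads is unknown. *Pax5* itself was measured at 342, 386 and 391 TPM in *Pax5*+/+ and at 42.98 and 39.1 TPM in *Pax5*-/- libraries. *Ly6d* was measured at 190.0 to 270.5 TPM in *Pax5*+/+ and at 2258 and 3033 TPM in *Pax5*-/- libraries. The 5 T cell markers summed to at most 1.80 TPM in *Pax5*+/+ and to 4.32 and 6.76 TPM in *Pax5*-/- libraries, where *Cd4* made up 3.97 and 5.88 TPM, while *Cd3d*, *Cd3e*, *Cd3g* and *Cd8a* each stayed below 0.5 TPM in all 5 libraries. The 7 myeloid genes found summed to 45.9, 252 and 192 TPM in *Pax5*+/+ and to 55.4 and 83.7 TPM in *Pax5*-/- libraries. The 5 erythroid genes, of which *Hbb-b1* is listed at 0, summed to 73.5, 158 and 186 TPM in *Pax5*+/+ and to 59.4 and 8 TPM in *Pax5*-/- libraries, and the part of such cells in the values below was not tested.

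All 10 genes differed between *Pax5*-/- and *Pax5*+/+ pro-B cells. *Ccnd1*, *Ccnd2*, *Cdk4* and *Cdk6* were higher, and *Ccnd3* and the 5 inhibitor genes were lower in *Pax5*-/- cells. The test was that of limma (two-sided, variances moderated along a trend with intensity) on log2(TPM + 0.5) values, on which changes of low genes look smaller than they are, and it covered the 12066 entries whose mean exceeded 1 TPM in either genotype. With an adjusted p-value (Benjamini-Hochberg over all entries tested) below 0.05, 4 of the 10 genes were higher and 6 lower. Of all entries tested, 37.1% passed, 15.6% being higher and 21.5% lower. In all 10 genes the libraries of the genotypes did not overlap, which was the case for 63.4% of all entries tested. For a call, the change also had to exceed 3-fold and the mean of either genotype 5 TPM. By this rule, 5.86% of all entries were called, and among the 10 genes *Ccnd1* and *Ccnd2* were called higher (2.71% of all entries) and *Ccnd3*, *Cdkn1a*, *Cdkn2c* and *Cdkn2d* lower (3.15% of all entries). The median size of the change was 1.83 on the log2 scale over the 10 genes and 0.39 over all entries tested. The labels do not say that the libraries came from separate mice, so the p-values measure the spread between these samples.

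**Figure D1:**
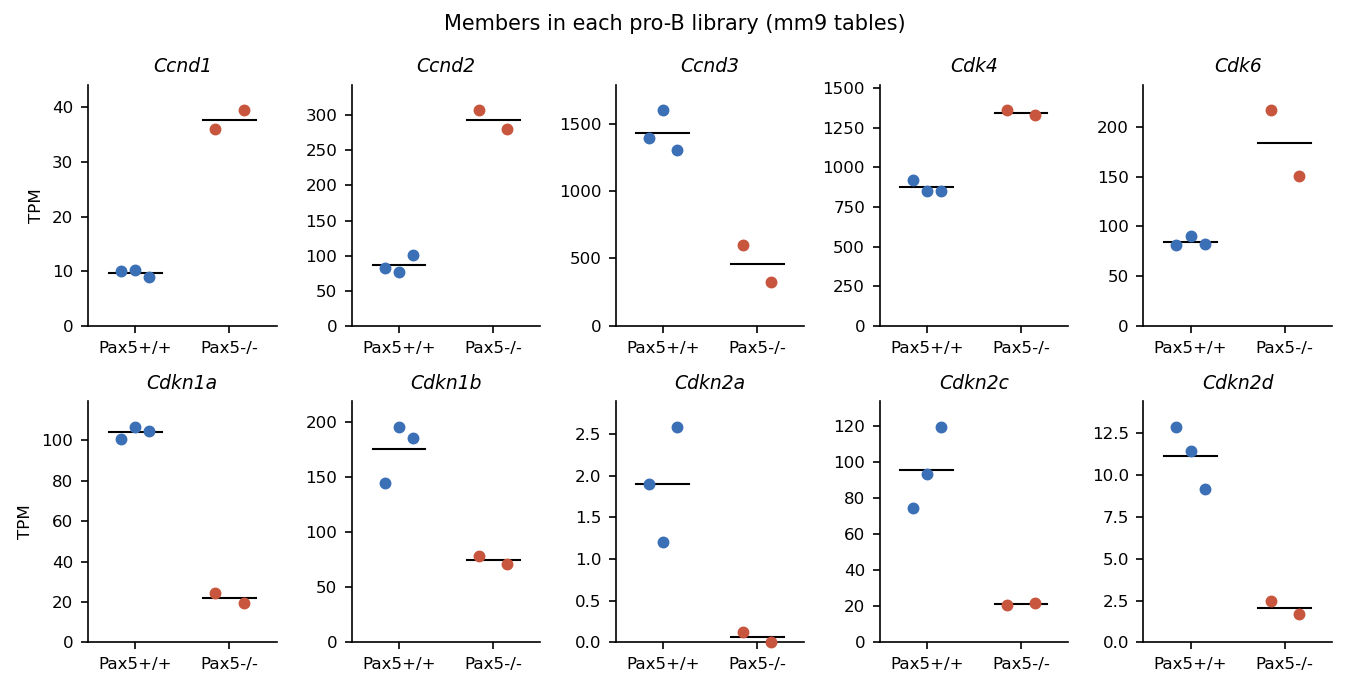
TPM of each gene in the 3 *Pax5*+/+ (blue) and 2 *Pax5*-/- (red) pro-B libraries, 1 point per library, with the mean as a line and each axis starting at 0. The top row holds the cyclins and kinases, of which *Ccnd3* alone is lower in *Pax5*-/- cells, and the bottom row holds the inhibitors, which are all lower.

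The D cyclins changed in opposite directions. *Ccnd3* (mm9, chr17:47642000-47736632, plus strand) was the highest of all 10 genes in *Pax5*+/+ cells, at 1392, 1598 and 1304 TPM, and was measured at 597 and 326 TPM in *Pax5*-/- cells. The *Pax5*-/- libraries differed from each other by 1.83-fold, and both lay below every *Pax5*+/+ library. The log2 fold change was -1.69 (SE 0.24, adjusted p = 0.0015 from limma). Without *Pax5*-/- replicate 2 it was -1.26, which no longer passes 3-fold, and the call was lost, although the adjusted p stayed at 0.015. *Ccnd2* (chr6:127075797-127101066, minus strand), which is induced by cytokines and growth factors in many lymphoid cells, showed the reverse pattern. It was measured at 82.9, 76.1 and 102 TPM in *Pax5*+/+ and at 307 and 280.3 TPM in *Pax5*-/- cells, giving a log2 fold change of 1.76 (SE 0.14, adjusted p = 1.0e-04 from limma). *Ccnd1* (chr7:152115836-152125774, minus strand), the D cyclin of many non-lymphoid tissues, was the lowest of the 3 cyclins in each of the 5 libraries. It was measured at 10.01, 10.1 and 8.87 TPM in *Pax5*+/+ and at 35.9 and 39.4 TPM in *Pax5*-/- cells, a change of 1.91 on the log2 scale (SE 0.15, adjusted p = 1.0e-04 from limma).

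The make-up of the D cyclin transcripts therefore differed between the genotypes. *Ccnd3* held 93.7, 94.9 and 92.2% of the summed *Ccnd1*, *Ccnd2* and *Ccnd3* TPM in *Pax5*+/+ and 63.5 and 50.5% in *Pax5*-/- cells. *Ccnd2* held 4.52 to 7.18% in *Pax5*+/+ and 32.7 and 43.4% in *Pax5*-/- cells. The share of *Ccnd1* was below 1% in each *Pax5*+/+ library and 3.82 and 6.11% in *Pax5*-/- cells. None of the 3 shares overlapped between the genotypes. An exact permutation test over the 5 libraries (two-sided) gave p = 0.1 for each share, the smallest p that 10 splits allow. In *Pax5*-/- cells, *Ccnd2* almost reached the level of *Ccnd3* in replicate 2 (280.3 against 326 TPM), but not in replicate 1 (307 against 597 TPM). The sum of the 3 cyclins was 1485, 1684 and 1415 TPM in *Pax5*+/+ and 939.6 and 645 TPM in *Pax5*-/- cells, so that the higher *Ccnd1* and *Ccnd2* values did not make up in TPM for the lower *Ccnd3* values.

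**Figure D2:**
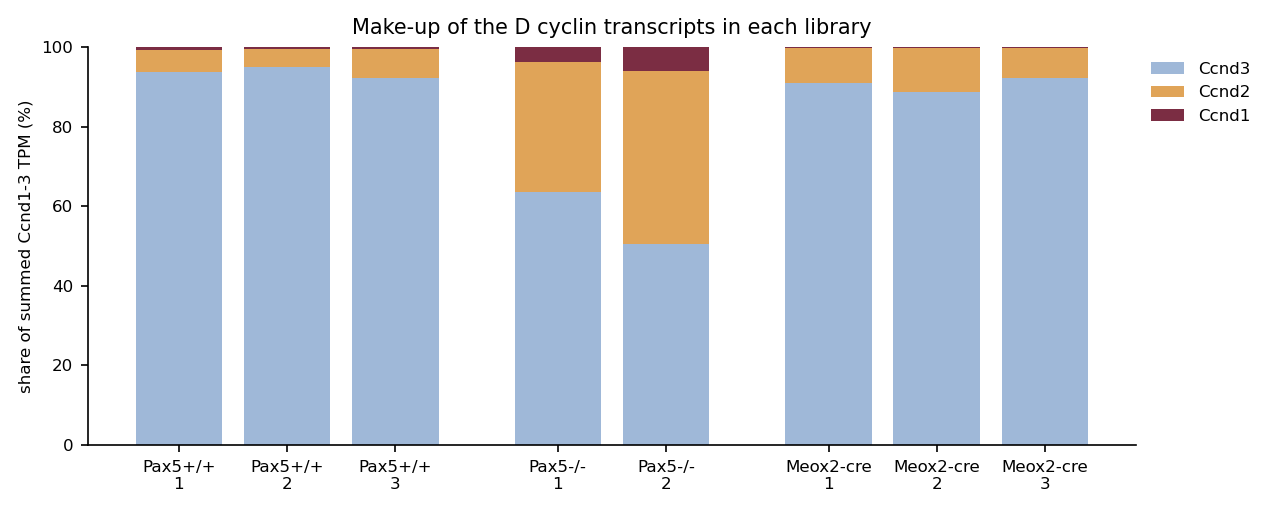
Share of *Ccnd3*, *Ccnd2* and *Ccnd1* in the summed TPM of the 3 genes (%, vertical axis) in each of the 8 libraries. *Ccnd3* holds 88.6 to 94.9% of the sum in the *Pax5*+/+ and Meox2-cre libraries and 63.5 and 50.5% in the *Pax5*-/- libraries.

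Both kinases were higher in *Pax5*-/- cells, *Cdk6* by more than *Cdk4*. *Cdk4* (chr10:126500590-126504976, plus strand) was measured at 920.3, 851 and 850.2 TPM in *Pax5*+/+ and at 1358 and 1328 TPM in *Pax5*-/- cells, where it was the highest of the 10 genes. Its log2 fold change of 0.62 (SE 0.10, adjusted p = 0.0024 from limma) was the smallest of the 10. *Cdk6* (chr5:3343893-3523218, plus strand), the partner of cyclin D3 in many blood cells, rose from 81.2, 89.9 and 82.1 TPM to 216 and 151 TPM, with a log2 fold change of 1.10 (SE 0.16, adjusted p = 0.0017 from limma). Neither kinase passed the 3-fold threshold. *Cdk6* made up 8.11 to 9.55% of the summed *Cdk4* and *Cdk6* TPM in *Pax5*+/+ cells and 13.7 and 10.2% in *Pax5*-/- cells, where replicate 2 lay close to the highest *Pax5*+/+ library (exact permutation test, two-sided, p = 0.1).

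The Cip/Kip genes were lower in *Pax5*-/- cells. *Cdkn1a* (chr17:29227924-29237667, plus strand), whose product p21 is a known target of p53, was measured at 101, 107 and 105 TPM in *Pax5*+/+ and at 24.3 and 19.6 TPM in *Pax5*-/- cells. Each genotype spanned a narrow range and the ranges lay far apart. The log2 fold change was -2.23 (SE 0.12, adjusted p = 2.4e-05 from limma). *Cdkn1a* was also the only one of them that passed a test against a change of 3-fold (limma treat, adjusted p = 0.026), as 301 of all 12066 entries did. *Cdkn1b* (chr6:134870419-134875531, plus strand), whose product p27 restrains quiescent lymphocytes, fell from 145, 195 and 185 TPM to 78.7 and 71.1 TPM. Its log2 fold change of -1.21 (SE 0.14, adjusted p = 7.5e-04 from limma) did not reach 3-fold.

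The INK4 genes were lower as well, at very different levels. *Cdkn2c* (chr4:109333481-109339794, minus strand), which encodes p18, was measured at 74.2, 93.4 and 119 TPM in *Pax5*+/+ and at 20.6 and 22.01 TPM in *Pax5*-/- cells. The *Pax5*+/+ libraries were spread 1.61-fold, yet the lowest of them lay well above both *Pax5*-/- libraries, and the log2 fold change was -2.11 (SE 0.19, adjusted p = 2.1e-04 from limma). *Cdkn2a* (chr4:88920377-88940557, minus strand), which encodes p16 and, from another first exon and reading frame, p19Arf, was the lowest of the 10 genes in each of the 5 libraries. It was measured at 1.89, 1.20 and 2.59 TPM in *Pax5*+/+ cells, at 0.13 TPM in *Pax5*-/- replicate 1, and is listed at 0 in *Pax5*-/- replicate 2. The values are per gene and do not separate p16 from p19Arf. The log2 fold change of -2.05 (SE 0.34, adjusted p = 0.0034 from limma) depended on the pseudocount, with -3.65 at 0.1 and -1.42 at 1 TPM, and the gene could not be called because its mean stayed below 5 TPM.

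*Cdkn2d*, which encodes p19Ink4d, lies in 2 places in the mm9 assembly. A search of its transcript against mm9 with BLAST found the annotated gene at chr9:21092907-21095653 (minus strand) and a second place on the plus strand of the same chromosome, annotated as the protein-coding gene *Gm4694*. There, 403 bases from 123836860 to 123837262 were 100% identical to the transcript and 872 bases from 123838737 to 123839608 were 99.9% identical. The mm9 tables hold 2 entries of this symbol. The first was measured at 12.9, 11.4 and 9.15 TPM in *Pax5*+/+ and at 2.45 and 1.68 TPM in *Pax5*-/- cells, giving a log2 fold change of -2.19 (SE 0.24, adjusted p = 4.9e-04 from limma). The second was measured at 0.199, 0.0978 and 0.289 TPM in *Pax5*+/+ cells, is listed at 0 in both *Pax5*-/- libraries, and was too low to be tested. The authors counted with the default settings of featureCounts, which leave out reads that map to more than one place, so the level of *Cdkn2d* in mm9 is uncertain, and so is its change. *Ccnd3* has an annotated pseudogene (*Ccnd3-ps*, chr4:138900315-138902230) that matched 1940 aligned bases of its transcript at 94.9% identity, and *Cdk6* matched 390 aligned bases on chr13 at 92.3%. No other place in mm9 matched any of the other 7 genes over at least 300 bases at 90% identity, chromosome 18 not being considered. Default counting also takes no account of strand, and *Ccnd1*, *Ccnd2*, *Ccnd3*, *Cdk4* and *Cdk6* each overlap 1 gene on the opposite strand in the GENCODE annotation.

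**Figure D3:**
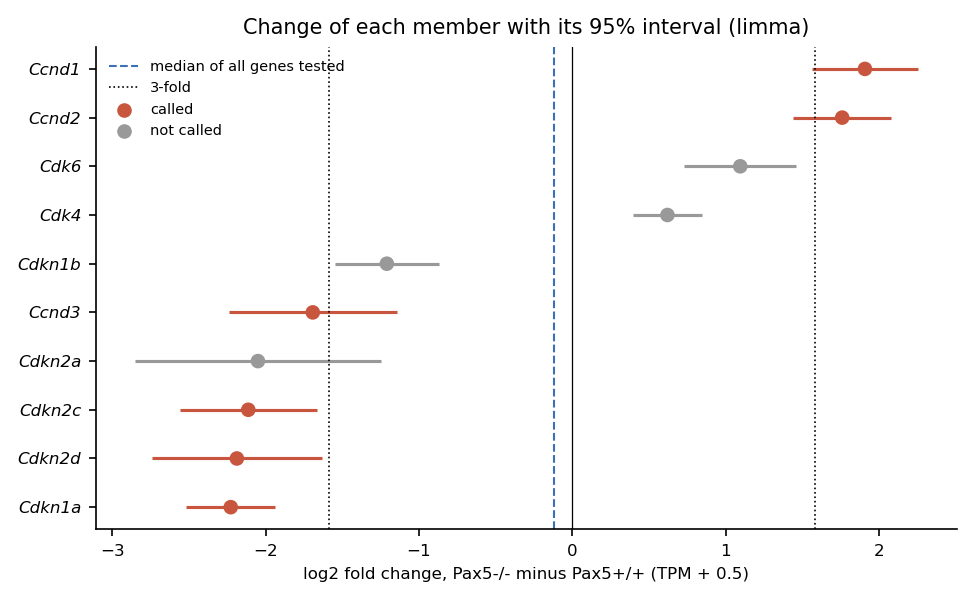
log2 fold change of TPM + 0.5 (horizontal axis, *Pax5*-/- minus *Pax5*+/+) of each of the 10 genes, with the 95% interval from limma as a line. The 6 called genes are red, the dotted lines mark 3-fold, and the dashed line marks the median of all 12066 entries tested, -0.12. Only the intervals of *Cdkn1a*, *Cdkn2c* and *Cdkn2d* lie wholly beyond 3-fold.

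Per kinase transcript, the summed cyclins and the summed inhibitors were both scarcer in *Pax5*-/- cells. The ratio of summed D cyclin to summed *Cdk4* and *Cdk6* TPM was 1.48, 1.79 and 1.52 in *Pax5*+/+ and 0.597 and 0.436 in *Pax5*-/- cells. On the cyclin side, where the sum was 1.93-fold lower by the means, this drop came from *Ccnd3*, which holds most of the sum. The means of *Ccnd1* and *Ccnd2* were 3.90- and 3.38-fold higher in *Pax5*-/- cells, more than the kinase sum. The ratio of summed Cip/Kip TPM (*Cdkn1a*, *Cdkn1b*) to the kinases was 0.245, 0.321 and 0.311 in *Pax5*+/+ and 0.0654 and 0.0613 in *Pax5*-/- cells, 4.61-fold lower by the means. The drop in these ratios combines lower cyclin or inhibitor values with a kinase sum that was itself 1.59-fold higher in *Pax5*-/- cells. The ratio of summed INK4 TPM (*Cdkn2a*, *Cdkn2c*, *Cdkn2d*) to the kinases was 0.0888, 0.113 and 0.141 in *Pax5*+/+ and 0.0147 and 0.0160 in *Pax5*-/- cells, 7.42-fold lower by the means and 7.30-fold lower without *Cdkn2d*. None of these ratios overlapped between the genotypes, and each gave p = 0.1 in the exact permutation test (two-sided), the smallest p possible here. TPM are transcripts and not proteins, and in sorted populations fewer cells with a transcript and less of it per cell cannot be told apart.

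**Figure D4:**
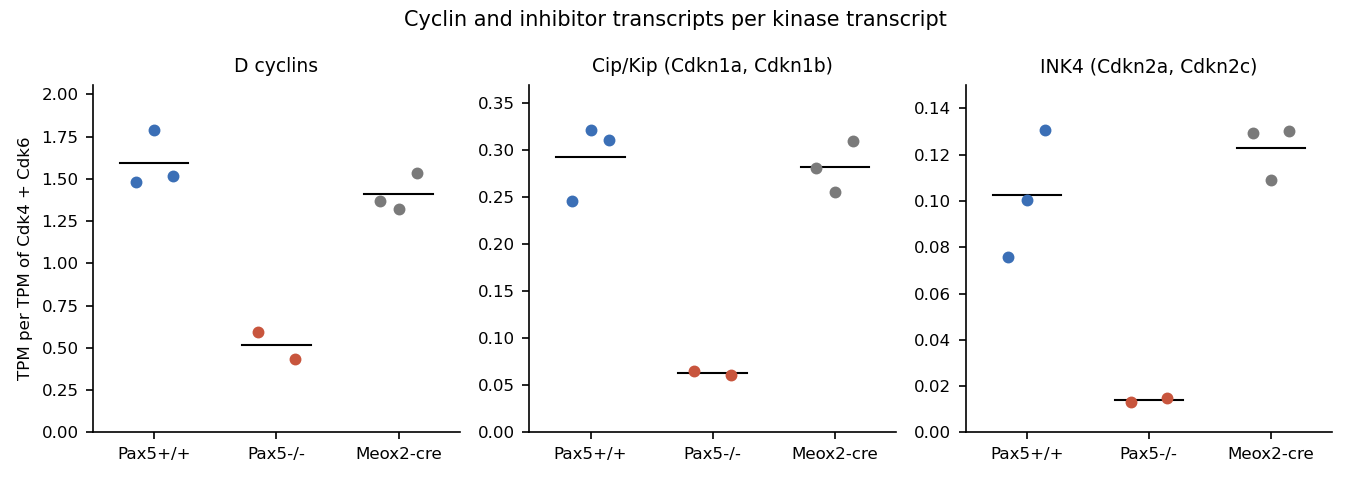
TPM of the D cyclins, of the Cip/Kip genes and of the INK4 genes other than *Cdkn2d*, each divided by the summed TPM of *Cdk4* and *Cdk6* (vertical axes, starting at 0), with 1 point per library and the mean as a line. Both *Pax5*-/- libraries lie below every *Pax5*+/+ and Meox2-cre library in all 3 panels.

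In the 3 Meox2-cre libraries, the order of the levels was close to that of the *Pax5*+/+ libraries, with *Cdkn2d* as the main exception. *Cdkn1a* also ranked above *Ccnd2* in the *Pax5*+/+ order and below it in the Meox2-cre order. *Ccnd3* was highest at 1463 ± 61.8 TPM (SD, n = 3), followed by *Cdk4* at 1062 ± 59.7 TPM and *Cdkn2d* at 323 ± 25.5 TPM. *Cdkn1b* came next at 207 ± 5.52 TPM. *Ccnd2* at 147 ± 28.4 TPM and *Cdkn2c* at 139 ± 7.70 TPM overlapped, as the only neighbours in the order that did. They were followed by *Cdkn1a* at 116 ± 11.6 TPM, *Cdk6* at 88.4 ± 6.59 TPM, *Ccnd1* at 4.77 ± 0.66 TPM and *Cdkn2a* at 1.61 ± 0.33 TPM. In the *Pax5*+/+ libraries the values of *Cdkn1a*, *Cdkn2c*, *Ccnd2* and *Cdk6* overlapped from each to the next, and so did those of *Cdkn2d* and *Ccnd1*. In the *Pax5*-/- libraries, *Cdkn1a* and *Cdkn2c* were the only neighbours that overlapped. Aligner, build and annotation differ between the Meox2-cre and the other tables, so the following values are set side by side without a test. *Cdkn2d* was measured at 334, 294 and 342 TPM in its single mm10 entry, 29.0 times the *Pax5*+/+ mean of the first mm9 entry. By contrast, the Meox2-cre means of the other 9 genes were between 0.494 (*Ccnd1*) and 1.70 (*Ccnd2*) times the *Pax5*+/+ means. Of 8803 genes with 1 entry in each table and means above 5 TPM in both, 96.6% differed by less than 2-fold and 0 were more than 10-fold higher in the mm10 tables. Symbols with more than 1 entry, such as *Cdkn2d*, were left out of this count, which therefore cannot show how far such symbols differ. With *Cdkn2d*, the ratio of INK4 to kinase TPM was 0.405 ± 0.049 (SD, n = 3) in Meox2-cre cells against 0.114 ± 0.026 (SD, n = 3) in *Pax5*+/+ cells, and without it 0.123 ± 0.012 against 0.102 ± 0.027.

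**Figure D5:**
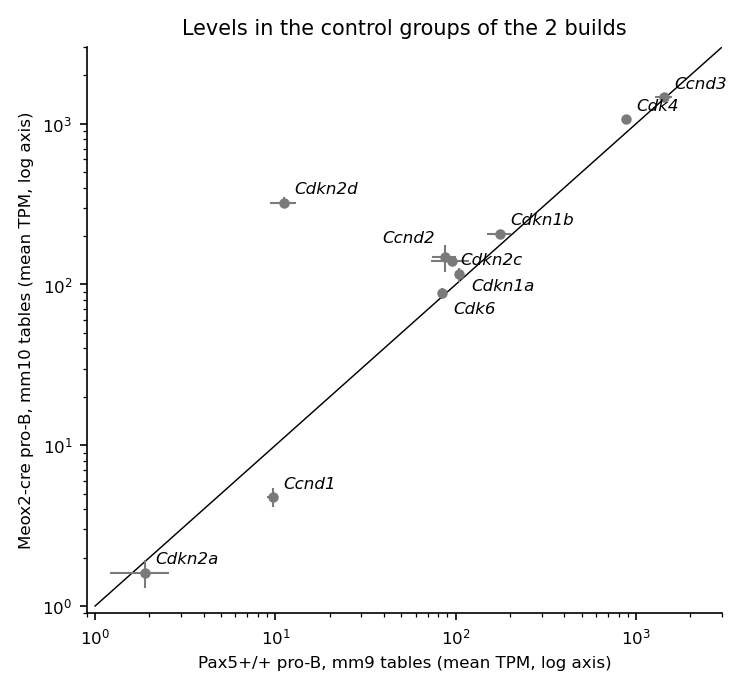
Mean TPM of the 10 genes in *Pax5*+/+ pro-B cells (mm9 tables, horizontal log axis) and in Meox2-cre pro-B cells (mm10 tables, vertical log axis), with the SD of 3 libraries each as bars and a line of equal values. *Cdkn2d* lies 29.0-fold above the line, and *Ccnd1* lies below it at 0.494.

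Promoter sequence was examined for 8 of the 10 genes, for which RefSeq start sites were given (GRCm38.p6, 12 windows of 250 bases upstream of a start). *Ccnd1* and *Ccnd2* were not among them. The motifs searched on both strands were the E-box CACGTG, to which Myc and Max bind, the GC box GGGCGG of Sp factors, the E2F cores TTCCCGC and TTGGCGC, and the STAT site TTCNNNGAA. The E-box was found 4 times upstream of *Cdk4* and 1 time upstream of *Cdk6*, the kinase genes, and in no window of the other 6 genes, and it occurs in 6.02% of all 32851 windows of this length. A GC box was found in 8 of the 12 windows, against 32.7% of all windows. An E2F core was found in 1 of the 2 windows each of *Cdkn2a* and *Cdkn2c*, against 5.62% of all windows, and a STAT site in none, against 7.02%. The windows of the kinases and that of *Cdkn2c* with the E2F core are printed 5′ to 3′ up to the base before the start, with matches to any of the motifs in capitals.
Cdk4, chr10:127063285-127063534, plus strand: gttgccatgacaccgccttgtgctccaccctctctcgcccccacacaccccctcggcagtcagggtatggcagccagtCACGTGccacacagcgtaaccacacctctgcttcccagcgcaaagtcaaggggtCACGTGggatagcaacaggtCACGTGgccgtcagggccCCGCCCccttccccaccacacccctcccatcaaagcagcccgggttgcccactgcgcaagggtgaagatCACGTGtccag
Cdk6, chr5:3343643-3343892, plus strand: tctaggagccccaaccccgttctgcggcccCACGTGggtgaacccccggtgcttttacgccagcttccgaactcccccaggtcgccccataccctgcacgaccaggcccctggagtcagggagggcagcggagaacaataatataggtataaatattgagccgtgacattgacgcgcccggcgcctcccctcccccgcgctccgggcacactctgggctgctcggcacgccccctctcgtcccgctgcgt
Cdkn2c, chr4:109666757-109667006, minus strand: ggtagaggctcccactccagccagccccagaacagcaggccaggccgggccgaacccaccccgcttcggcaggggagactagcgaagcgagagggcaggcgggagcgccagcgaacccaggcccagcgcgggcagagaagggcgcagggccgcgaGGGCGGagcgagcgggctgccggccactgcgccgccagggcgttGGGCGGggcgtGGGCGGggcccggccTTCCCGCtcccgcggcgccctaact
In *Cdk4* the capitals are the 4 E-boxes and 1 GC box, in *Cdk6* the E-box, and in *Cdkn2c* 3 GC boxes and, nearest to the start, the E2F core. These letters are a description, and binding was not measured here. *Myc* rose from 197, 214 and 212 TPM to 520.3 and 456 TPM in *Pax5*-/- cells (log2 fold change 1.23, adjusted p = 1.3e-04 from limma). Whether this change is related to the E-boxes or to the levels of the kinase genes was not tested.

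Among the 13 pocket protein and E2F genes, through which the D cyclin kinases act, 8 were lower, 0 higher and 5 did not pass the test, where 21.5% of all entries tested were lower and 15.6% higher. *Rb1*, the substrate of the kinases, was called lower, at 22.1, 27.1 and 31.4 TPM in *Pax5*+/+ and 6.15 and 5.87 TPM in *Pax5*-/- cells (log2 fold change -2.06, adjusted p = 2.0e-04 from limma). *E2f2*, an activating E2F factor, fell from 377, 396 and 377 TPM to 61.7 and 46.1 TPM (log2 fold change -2.83). The repressive factors *E2f7* and *E2f8* were lower too (log2 fold changes -1.72 and -1.502). *E2f1* was measured at 77.4 to 83.3 TPM in *Pax5*+/+ and at 84.4 and 65.8 TPM in *Pax5*-/- cells and did not pass the test (adjusted p = 0.59 from limma). The median log2 fold change of the list was -0.46, against -0.12 for all entries tested. Without *Pax5*+/+ replicate 2, 5 genes of the list and 29.5% of all entries tested passed. Fewer genes of the list and fewer of all entries passed with either *Pax5*-/- library left out.

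All 7 tested genes of the cyclins and kinases that act after the D cyclins were lower, with a median of -0.83, and *Ccna1* is listed at 0. Of all entries tested, 21.5% were lower and 15.6% higher, with a median of -0.12. *Ccne1*, the cyclin that activates Cdk2 at the entry into S phase, fell from 73.7, 68.3 and 76.7 TPM to 23.2 and 23.7 TPM (log2 fold change -1.61, adjusted p = 6.2e-05 from limma). The log2 fold changes were -1.48 for *Ccne2*, -0.997 for *Ccna2*, -0.83 for *Ccnb1* and -0.48 for *Cdk2*. With either *Pax5*-/- library left out, fewer of these genes passed, and so did fewer of all entries tested. Of the 18 replication and mitosis genes, 9 were lower, 1 higher and 8 did not pass, with a median of -0.53, where 37.1% of all entries tested passed. *Rrm2* (-1.66), *Mki67* (-1.42), *Top2a* (-0.93) and *Tyms* (-0.87) were lower, and *Cdt1*, which licenses replication origins, was higher (0.64). None of *Mcm2* to *Mcm7* passed, and their log2 fold changes lay between -0.07 and 0.25. Fewer genes of this list passed with either *Pax5*-/- library left out, and so did fewer of all entries tested. *Mki67* and *Top2a* mark cycling cells, and the part of the share of cycling cells in the changes of the 10 genes was not tested.

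Of the other genes for Cdk inhibitors, *Cdkn1c* (p57) fell from 10.6, 10.4 and 8.003 TPM to 2.52 and 3.42 TPM (log2 fold change -1.55, adjusted p = 0.0018 from limma). *Cdkn3*, a phosphatase of Cdks, was lower (-1.23), and *Cdkn2b*, the neighbour of *Cdkn2a*, was below 0.2 TPM in all 5 libraries and not tested. Of the 16 genes for activation of Cdks and turnover of cyclins and inhibitors, 5 were lower, 0 higher and 11 did not pass, with a median of -0.18. The share that passed was near the 37.1% of all entries tested. *Cdc25b*, a phosphatase that activates Cdks, was measured at 487, 541 and 580.3 TPM in *Pax5*+/+ and at 50.6 and 52.4 TPM in *Pax5*-/- cells (log2 fold change -3.36, adjusted p = 2.6e-06 from limma). *Skp2*, which targets p27 for degradation, was lower (log2 fold change -0.92), as were *Gsk3b*, a kinase that marks D cyclins for degradation (-0.59), and *Ccnh*, a subunit of the Cdk-activating kinase (-0.44). Leaving out either *Pax5*-/- library lowered the number that passed, in this list and over all entries tested. The median of the list lay within 0.1 of that of all entries tested.

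Among the 12 upstream regulators, 5 were lower, 2 higher and 5 did not pass, with a median of -0.15, where 21.5% of all entries tested were lower and 15.6% higher. *Foxo1*, a known activator of *Cdkn1b*, fell from 146, 212 and 163 TPM to 77.3 and 78.4 TPM (log2 fold change -1.14, adjusted p = 0.0015 from limma), and *Gfi1b* (-2.16) and *Gfi1* (-1.19), which encode transcriptional repressors, were lower. *Myc* and *Trp53*, the gene of p53, were higher, with 0.35 for *Trp53*. *Bmi1*, the Polycomb gene known to repress *Cdkn2a*, was measured at 36.2, 37.5 and 43.3 TPM in *Pax5*+/+ and at 48.5 and 47.8 TPM in *Pax5*-/- cells, which did not pass (adjusted p = 0.091 from limma). Without *Pax5*+/+ replicates 2 and 3 in turn, 1 and 4 regulators were higher, where 29.5 and 35.3% of all entries tested passed. Fewer regulators and fewer of all entries passed with either *Pax5*-/- library left out. *Cdkn1a* is a p53 target, and of 13 other p53 target genes tested, 4 were lower, 1 was higher and 8 did not pass, with a median of -0.22. The share that passed was near the 37.1% of all entries tested. *Btg2* (-1.39), *Gadd45a* (-1.34), *Pmaip1* (-1.17) and *Mdm2* (-0.69) were lower and *Phlda3* (1.76) was higher. Again, fewer genes of the list and fewer of all entries tested passed with either *Pax5*-/- library left out.

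For each called gene, the entry with the most similar profile was sought among all others tested, as the smallest root mean square distance between log2(TPM + 0.5) values centred over the 5 libraries. These entries were *Ecscr* for *Ccnd1* (distance 0.026), *Zdhhc23* for *Ccnd2* (0.069), *Myl9* for *Ccnd3* (0.10), *Igll1* for *Cdkn1a* (0.056), *Gpsm2* for *Cdkn2c* (0.058) and *Olfml2b* for *Cdkn2d* (0.13). Some of them were low. *Ecscr* was measured at 0.570, 0.559 and 0.441 TPM in *Pax5*+/+ cells, near the 0.5 TPM added before the logarithm, and *Zdhhc23* at 2.67, 2.62 and 3.35 TPM. *Igll1*, a surrogate light chain gene of pro-B cells, was measured at 2671, 2974 and 2723 TPM in *Pax5*+/+ and at 642 and 572 TPM in *Pax5*-/- cells. *Gpsm2* was measured at 18.9, 25.1 and 30.9 TPM in *Pax5*+/+ and at 4.71 and 5.01 TPM in *Pax5*-/- cells. Its *Pax5*+/+ libraries had the same order as those of *Cdkn2c*, which the choice by smallest distance favours. *Pax5*+/+ replicate 1 had the lowest *Cdkn1b*, *Cdkn2c* and *Rb1* values of its group and also the lowest myeloid and erythroid sums, and whether these are related was not tested. Without this library, the log2 fold changes of *Cdkn1b* and *Cdkn2c* were -1.34 and -2.28.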

How the data were processed

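RNA-seq of 8 pro-B cell libraries was examined. After removal of ribosomal RNA reads, the authors aligned the *Pax5*+/+ and *Pax5*-/- libraries to mm9 with TopHat 1.4.1a and the Meox2-cre libraries to mm10 with STAR 2.4.2a, counted reads per gene with featureCounts 1.5.0 and deposited TPM values, which sum to 1000000 in each library. Depth in reads, and intervals that need it, are therefore unknown. Groups are those of the labels, and replicate numbers follow the accession order and only name libraries. The entries of the *Pax5*+/+ and *Pax5*-/- libraries with a mean above 1 TPM in a genotype were tested with limma 3.58.1 under R 4.3.3 (eBayes with trend) on log2(TPM + 0.5), with Benjamini-Hochberg adjustment, and immunoglobulin and T cell receptor entries were left out of the calls. Shares and ratios were compared by exact permutation tests (scipy 1.17.1). The fit was tested on simulated data. Some symbols carry marks (_IMP, _OVL, _DUP) that the sources used here do not explain, and these were removed for matching. Coordinates are from the mm9 GENCODE annotation, copies were searched with BLAST 2.17.0, promoter sequences are RefSeq (GRCm38.p6), and figures were drawn with matplotlib 3.10.9. The genes named are all 10 members, up to 4 genes of each related list with the largest change among those that passed, a few regulators, and the entry nearest to each called member. *Cdt1*, *Mdm2*, *Cdkn2b*, *Ccna1*, *Cd4* and the *Mcm* genes were named after their values were seen. The members and lists were chosen with earlier results of these data known. The ChIP-seq samples are not analysed here.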

Additional observations from a re-analysis of the deposited data

How the results depend on the processing

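The direction of all 10 genes and their adjusted p below 0.05 were kept under the 14 alternatives (13 for *Cdkn2a*, which a filter at 5 TPM removes): pseudocounts of 0.1 and 1, no filter or one at 5 TPM, a robust eBayes or one without the trend, 3 other scalings, and each library left out. The highest adjusted p from limma was 0.048, for *Cdk4*. With a single *Pax5*-/- library left, its spread was assumed to be that of the *Pax5*+/+ group. Of the 6 calls, 2 higher and 3 to 4 lower were made with 1 library left out, and *Ccnd3* was lost without *Pax5*-/- replicate 2. With the limma treat test against 3-fold, 1 gene was called lower and 0 higher, since that test asks for more certainty about the size. With a 2-fold threshold, *Cdk6* and *Cdkn1b* joined the calls, giving 3 higher and 5 lower.

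Rescaling by median ratios, which moved the median change of all entries from -0.12 to -0.01, gave 3 lower and 1 higher gene for Cdk activation and turnover, 4 higher upstream regulators and 2 higher p53 target genes. Quantile normalization gave 2 higher genes each for Cdk activation and turnover, p53 targets, and replication and mitosis. Without the trend, 1 upstream regulator was higher. The cause of these shifts was not tested. With 1 *Pax5*+/+ library left out, 29.5 to 41.8% of all entries tested passed. The counts of lower genes were then 5 to 8 for pocket proteins and E2F factors and 7 for later cyclins and kinases. They were 5 for Cdk activation and turnover and 4 to 5 for upstream regulators. For p53 targets they were 3 to 4, and for replication and mitosis 9 to 10. Those of higher genes were 0 to 1 for Cdk activation and turnover, 1 to 4 for upstream regulators and 1 for replication and mitosis. With 1 *Pax5*-/- library left out, fewer of all entries tested and fewer genes of each of these lists passed. The *Pax5*-/- ratio of INK4 to kinase TPM was 0.0140 without *Cdkn2d*, a setting chosen after seeing the data. No paired analysis was possible because no replicate number in the labels ties a *Pax5*-/- library to a *Pax5*+/+ library.

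With 3 and 2 libraries and no read counts, precision is limited to the spread between libraries, and values near 0, as for *Cdkn2a*, have no known counting error.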
